A study of Homo sapiens with 60 samples.

Results

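Transcripts of fatty acid synthesis and desaturation were followed in HT29, an established human colorectal adenocarcinoma line, across 21 treatment groups. The members were taken by symbol from the deposited gene table and were ACACA, FASN, SCD, ACLY, ELOVL5, ELOVL6, FADS1, FADS2, SREBF1 and ACSL3, 10 of the 60675 genes in it. Of these, 9 passed the low-count filter and were tested among 16767 genes, and ELOVL5 did not. The cells had been treated for 24 h before messenger RNA was sequenced as pairs of reads.

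The treated groups were wortmannin at 10 µM and LY294002 at 10 µM, both inhibitors of phosphoinositide 3-kinase (PI3K), and water extracts of Poria Cocos, Atractylodis Rhizoma, Glycyrrhizae Radix, Panax Ginseng, Angelicae Gigantis Radix and Paeoniae Radix, each at 20, 100 and 500 µg/mL. They are called Poria, Atractylodis, Glycyrrhizae, Ginseng, Angelicae and Paeoniae here, with the dose after the name. Vehicle was DMSO, at 0.1% per the labels, while the series text gives another percentage. That text also says that an extract with its IC20 below 500 µg/mL was given at less, whereas every label here gives the 3 doses above. Each dose of Paeoniae had 2 libraries and the remaining 18 groups had 3. The first number of the sample code differed between vehicle with the inhibitors (1), Poria with Atractylodis (2), Glycyrrhizae with Ginseng (3) and Angelicae with Paeoniae (4). The codes of vehicle alone carry a letter A before that number, and all titles read BatchA. The labels do not say what the number or the letter stands for, so whether vehicle and the inhibitors share a set is not settled. A comparison of an extract with vehicle is therefore also a comparison between these code sets, and the 2 cannot be told apart. The labels give a DMSO percentage for vehicle only, so a comparison of an extract or inhibitor with vehicle may differ in solvent too. By contrast, 500 against 20 µg/mL of an extract, or one extract against its partner, compares libraries of 1 set. Whether replicates came from separate cultures is not stated, so p-values measure the spread between these libraries, which may be technical.

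Cells make fatty acids from cytosolic acetyl-CoA. ACLY cleaves citrate to supply it, ACACA carboxylates it to malonyl-CoA, and FASN builds palmitate from it. Elongases such as ELOVL6 and ELOVL5 lengthen the chain, and the desaturases SCD, FADS1 and FADS2 insert double bonds. Acyl-CoA synthetases such as ACSL3 activate fatty acids for use in lipids. SREBF1 encodes the transcription factor SREBP-1, which is released from the endoplasmic reticulum by proteolysis and drives most of these genes. Insulin and PI3K signalling raise its activity, the liver X receptor raises its transcription, and tumour cells often use the pathway to make membrane lipids.

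Library totals ran between 20431980 and 35477712 expected counts, and levels are given as CPM, the count relative to the TMM-scaled size of its library. CPM does not take account of gene length, so levels are compared between groups and not between genes. Of 12 genes that mark colon epithelium, 10 had means of at least 5 CPM over all libraries, among them EPCAM at 558 CPM, KRT20 at 311 CPM and CDX2 at 5.07 CPM. The markers below that level were CDX1 at 0.864 CPM and GPA33 at 3.41 CPM. The 6 adipocyte markers and the 6 hepatocyte markers were all under 1 CPM, and their summed levels lay between 0.822 and 1.78 CPM and between 0.242 and 1.04 CPM over the libraries. Levels of markers, of ELOVL5 and of genes that overlap members are relative to library totals without TMM scaling. Leukocyte markers summed to between 9.04 and 16.5 CPM, most of it CD68 at 6.74 CPM and CD14 at 3.59 CPM. Fibroblast markers summed to at most 2.95 CPM and endothelial markers to at most 3.36 CPM.

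Promoter windows from RefSeq (GRCh38.p14) were used for 9 of the 10 members, 13 windows in all, and no FASN window was used here. Each was searched over the 250 bases before the annotated start, on both strands, for the letters CCAAT (the box bound by NF-Y, a partner of SREBP), TCACNCCAC (a form of the sterol regulatory element), CACGTG (an E-box) and GGGCGG (a GC box bound by SP1). Over the 35116 windows of that length in the table, 32% held CCAAT, 0.883% TCACNCCAC, 6.34% CACGTG and 42.6% GGGCGG. No member's window held TCACNCCAC, and CACGTG was found in the ELOVL5 window only. CCAAT was found in windows of SCD, ACSL3, ACLY, ACACA and ELOVL5, and not in those of SREBF1, ELOVL6, FADS1 and FADS2. GGGCGG was found 2 times in the SCD window and 3 times in each of the SREBF1 and ACSL3 windows, and in a window of every other member but ELOVL5. SCD, SREBF1 and ACSL3 are shown because they were the members whose level differed between doses of an extract in the test described further on. Printed for each are the bases of its window that lie before the start of the gene in GENCODE 29, with CCAAT and GGGCGG on either strand in capitals. The stretches are SCD at chr10:100346983-100347123 on the plus strand, SREBF1 at chr17:17837003-17837236 on the minus strand and ACSL3 at chr2:222860786-222860933 on the plus strand.
SCD: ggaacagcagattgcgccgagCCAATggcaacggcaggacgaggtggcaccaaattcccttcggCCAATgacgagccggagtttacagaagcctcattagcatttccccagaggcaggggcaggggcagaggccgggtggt
SREBF1: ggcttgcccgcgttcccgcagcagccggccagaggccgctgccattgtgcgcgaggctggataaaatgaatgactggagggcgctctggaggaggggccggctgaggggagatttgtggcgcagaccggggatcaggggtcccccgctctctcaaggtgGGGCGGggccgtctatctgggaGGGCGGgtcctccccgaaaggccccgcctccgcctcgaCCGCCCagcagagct
ACSL3: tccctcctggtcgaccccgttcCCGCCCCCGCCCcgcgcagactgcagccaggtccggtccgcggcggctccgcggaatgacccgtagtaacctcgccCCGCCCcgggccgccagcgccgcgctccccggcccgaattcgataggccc
The CCAAT of ACSL3 lies past that start, at chr2:222860951-222860975 with 10 bases on each side.
ACSL3 CCAAT: cgctcgcgggCCAATgggtggcagc
The SCD stretch holds 2 CCAAT and no GGGCGG, the SREBF1 stretch holds 3 GGGCGG and no CCAAT, and the ACSL3 stretch holds 3 GGGCGG. The 2 GGGCGG of the SCD window lie past the printed stretch. These matches are descriptions of letters, not of bound sites.

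SREBF1, the regulator (ENSG00000072310, chromosome 17, 17810399 to 17837002), was measured in every library, between 126 and 162.7 CPM. Its group means ran between 129.3 CPM in Ginseng 500 and 159 CPM in Poria 500, a ratio of 1.23, and the vehicle libraries had 134.8, 138.7 and 141.4 CPM. Its expected count was not whole in 83.3% of libraries, which RSEM gives where reads can belong to several features, and RAI1 overlaps it on the opposite strand at 124 CPM. The kit marks strand, but no source used here says how strand was set in the counting.

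The enzymes that make the acyl chain varied by little. ACLY (chromosome 17, 41866908 to 41930542) had group means between 364.9 CPM in LY294002 and 423.4 CPM in Paeoniae 500, the smallest ratio of the tested members at 1.16, and its expected count was not whole in 78.3% of libraries. ACACA (chromosome 17, 37084988 to 37406818) ran between 459.2 CPM in LY294002 and 606.1 CPM in Poria 500, a ratio of 1.32. FASN (chromosome 17, 82078333 to 82098332) ran between 875.7 CPM in LY294002 and 1089 CPM in Poria 500, a ratio of 1.24. ELOVL6, which extends palmitate (chromosome 4, 110045846 to 110199199), ran between 64.19 CPM in LY294002 and 82.74 CPM in Poria 500, a ratio of 1.29. For each of these 4 genes LY294002 was the group with the lowest mean, and for all of them but ACLY Poria 500 was the group with the highest.

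SCD, which makes monounsaturated fatty acids (ENSG00000099194, chromosome 10, 100347124 to 100364834), had group means between 1673 CPM in Poria 20 and 2100 CPM in Poria 500, so its lowest and highest means were doses of the same extract. ACSL3, an acyl-CoA synthetase of the endoplasmic reticulum and lipid droplets (ENSG00000123983, chromosome 2, 222860934 to 222944639), ran between 220.3 CPM in Angelicae 500 and 278.5 CPM in Poria 500. Both ratios were 1.26. Within a group the median coefficient of variation was 2.23% for SCD and 3.34% for ACSL3.

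The genes that act on polyunsaturated fatty acids had low counts. FADS1 (chromosome 11, 61799625 to 61829318) averaged 5.23 CPM, 103 to 198 counts a library, with group means between 4.603 CPM in Glycyrrhizae 500 and 5.918 CPM in Glycyrrhizae 20. FADS2 (chromosome 11, 61792980 to 61867354) averaged 0.301 CPM, 3 to 14 counts a library, and its median coefficient of variation of 28.2% was wide beside its group means of 0.183 to 0.3964 CPM. FADS1 and FADS2 overlap on opposite strands, and FEN1, at 136 CPM, overlaps FADS2 on the same strand. ELOVL5 (ENSG00000012660, chromosome 6, 53267398 to 53349179) had 14 counts in all 60 libraries, with 48 libraries at 0 and none above 2. That is 0.00883 CPM, with a 95% exact Poisson interval of 0.00483 to 0.0148 CPM that covers counting error only. It was not tested, and no other GENCODE 29 gene with counts overlaps it. Whether this level belongs to the line or to the annotation used in counting was not tested, so it is the level in the deposited table only.

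**Figure D1:**
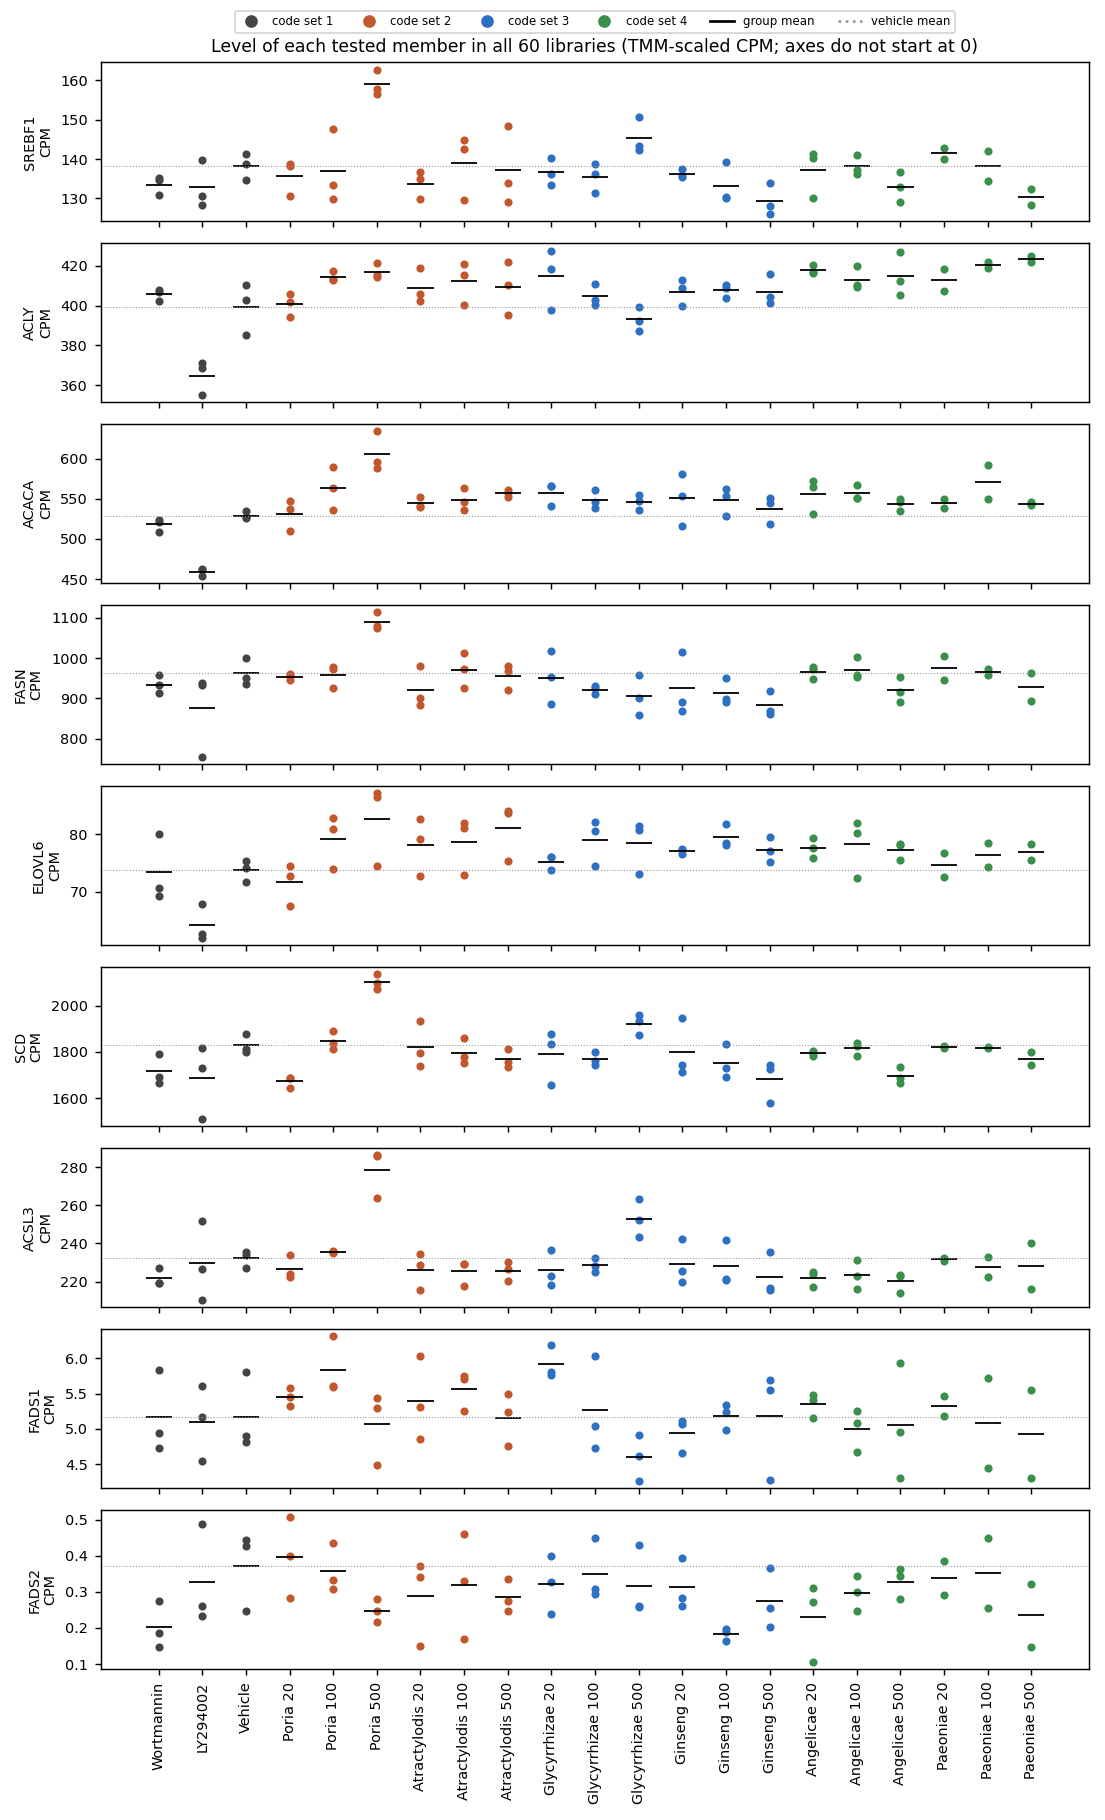
Level of each of the 9 tested members (CPM on axes that do not start at 0) in every library of the 21 groups, coloured by code set, with the group mean as a bar and the vehicle mean as a dotted line. Poria 500 stands highest in the panels of SCD at 2100 CPM and ACSL3 at 278.5 CPM, LY294002 lowest in that of ACACA at 459.2 CPM, and FADS2 shows wide scatter within groups.

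Over the 21 groups, the edgeR quasi-likelihood test called 7 of the 9 tested members different among groups, against 37.5% of all genes tested. The adjusted p was 2.17e-07 for ACACA, 1.61e-05 for ACSL3, 6.03e-05 for SCD, 6.94e-05 for ACLY, 0.000597 for SREBF1, 0.00241 for ELOVL6 and 0.0107 for FASN. FADS1 (adjusted p = 0.611) and FADS2 (0.764) were not called. A second test asked only whether doses of the same extract differed, which leaves out vehicle, the inhibitors and differences between code sets. It called SCD (adjusted p = 0.00204), ACSL3 (0.00374) and SREBF1 (0.0177), 3 of 9 members, against 2.2% of all genes.

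ACACA, ELOVL6, ACLY and SCD were slightly lower in LY294002 than in vehicle, while no member was called in wortmannin. In these bulk libraries a change in every cell and a change in some cells cannot be told apart. ACACA had 462.1, 453.8 and 461.8 CPM in LY294002, against 527.2, 525.5 and 534.3 CPM in vehicle. The groups did not overlap, and the log2 fold change was -0.20 ± 0.04 (SE, n = 3 each, edgeR adjusted p = 1.62e-05). ELOVL6 had 62.64, 62.01 and 67.92 CPM in LY294002, against 74.19, 71.77 and 75.42 CPM in vehicle, again without overlap (-0.20 ± 0.06, adjusted p = 0.00565). ACLY had 368.5, 371 and 355.1 CPM in LY294002, against 410.2, 403 and 385.2 CPM in vehicle (-0.13 ± 0.03, adjusted p = 0.000232), also without overlap.

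SCD had 1732, 1818 and 1510 CPM in LY294002, against 1800, 1875 and 1811 CPM in vehicle, with overlap (-0.12 ± 0.05, adjusted p = 0.0493). FASN had 933.6, 938.8 and 754.8 CPM in LY294002, against 951.5, 998.9 and 934.9 CPM in vehicle, and was not called (-0.14 ± 0.06, adjusted p = 0.0511). The third LY294002 library was the lowest of the 6 for both genes. Without it SCD changed by -0.04 and lost its call (adjusted p = 0.538), and the SCD call was also lost without vehicle library 1 (-0.13, 0.0592), 2 (-0.10, 0.161) or 3 (-0.12, 0.0731). FASN was called without LY294002 library 1 (-0.19, adjusted p = 0.0135) or 2 (-0.19, 0.0137), by DESeq2 (-0.14, 0.0297), with RLE size factors (-0.14, 0.0382), with no filter (-0.14, 0.0178) and with the replicate block (-0.14, 0.0167). In a fit to the compared groups only, the calls of SCD (-0.11, adjusted p = 0.281) and ACLY (-0.12, 0.0987) were lost. SREBF1 had 130.7, 139.8 and 128.3 CPM in LY294002 and 134.8, 138.7 and 141.4 CPM in vehicle (-0.06 ± 0.05, adjusted p = 0.34), so the transcript of the regulator itself was not called.

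In all, 4 of 9 members fell with LY294002 and none rose, where 39.2% of all genes were called and 20.5% were called lower. The median log2 fold change was -0.13 over the members and 0.01 over all genes. With wortmannin no member was called by edgeR or by DESeq2, and none had an unadjusted p under 0.05, against 13.7% of all genes called. The member medians were -0.04 with wortmannin and 0 for all genes, and ACACA differed by -0.03 ± 0.04 with wortmannin (adjusted p = 0.668).

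The 2 inhibitors, both used at 10 µM for 24 h, were also set against each other. ACACA had 524, 508.5 and 521.5 CPM in wortmannin, against 462.1, 453.8 and 461.8 CPM in LY294002 (0.17 ± 0.04, adjusted p = 0.000406). ACLY had 402.5, 407.8 and 406.8 CPM in wortmannin, against 368.5, 371 and 355.1 CPM in LY294002 (0.15 ± 0.03, adjusted p = 5.78e-05). ELOVL6 had 69.37, 70.75 and 80.07 CPM in wortmannin, against 62.64, 62.01 and 67.92 CPM in LY294002 (0.19 ± 0.06, adjusted p = 0.0145). None of these 3 pairs of groups overlapped, and 3 of 9 members were called, all higher in wortmannin, against 22.2% of all genes called and 12.7% called higher. The ELOVL6 call was lost without wortmannin library 3 (0.13, adjusted p = 0.188) or LY294002 library 2 (0.17, 0.0712). All 3 were lost in a fit to the compared groups only (ACACA 0.17, adjusted p = 0.0712, ACLY 0.15, 0.102, ELOVL6 0.19, 0.137). SCD differed by 0.02 ± 0.05 and was not called (adjusted p = 0.776).

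Poria 500 was the extract dose with calls among the members against vehicle, all of them higher. ACSL3 had 263.6, 286.2 and 285.7 CPM in Poria 500, against 233.9, 235.3 and 227.4 CPM in vehicle (0.26 ± 0.05, adjusted p = 0.000225). SCD had 2070, 2135 and 2096 CPM in Poria 500, against 1800, 1875 and 1811 CPM in vehicle (0.20 ± 0.05, adjusted p = 0.00591). SREBF1 had 156.4, 162.7 and 157.8 CPM in Poria 500, against 134.8, 138.7 and 141.4 CPM in vehicle (0.20 ± 0.05, adjusted p = 0.00319). In each of these genes every Poria 500 library was above every vehicle library.

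ACACA had 588.1, 596.3 and 633.8 CPM in Poria 500, against 527.2, 525.5 and 534.3 CPM in vehicle (0.20 ± 0.04, adjusted p = 0.000383). FASN had 1074, 1113 and 1079 CPM in Poria 500, against 951.5, 998.9 and 934.9 CPM in vehicle (0.18 ± 0.06, adjusted p = 0.039). Neither pair of groups overlapped. The FASN call was lost without Poria 500 library 1 (0.19, adjusted p = 0.0712), 2 (0.16, 0.113) or 3 (0.19, 0.0642), or without vehicle library 1 (0.17, 0.0924) or 3 (0.16, 0.178). A fit to the compared groups only lost the calls of SREBF1 (0.20, adjusted p = 0.0588), ACACA (0.20, 0.0652) and FASN (0.18, 0.0803). ELOVL6 had 74.56, 86.53 and 87.12 CPM in Poria 500, against 74.19, 71.77 and 75.42 CPM in vehicle, and was not called (0.16 ± 0.06, adjusted p = 0.0785). Its first Poria 500 library lay among the vehicle libraries, and without that library ELOVL6 was called (0.24, adjusted p = 0.0166). ACLY differed by 0.06 ± 0.03 (adjusted p = 0.194).

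Thus 5 of 9 members rose and none fell in Poria 500 against vehicle, where 7.49% of all genes were called and 4.6% were called higher. The median log2 fold change was 0.18 over the members and -0.01 over all genes. No member was called in Poria 100, where 0.0417% of all genes were, or in Poria 20, where 0% were.

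**Figure D2:**
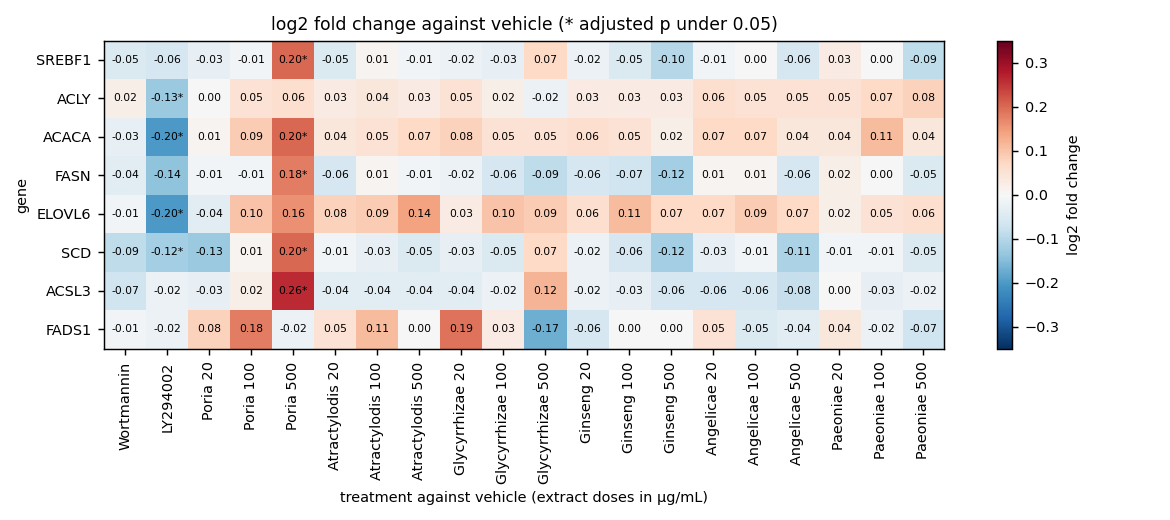
Log2 fold change against vehicle of 8 members (FADS2 left out) in each inhibitor and extract dose, red for higher and blue for lower, with an asterisk at an adjusted p under 0.05. The asterisks lie in the LY294002 column (4, all lower) and the Poria 500 column (5, all higher).

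Within Poria, where doses share a code set, 6 of 9 members rose at 500 against 20 µg/mL and none fell, while 5.51% of all genes were called and 3.21% were called higher. SCD had 2070, 2135 and 2096 CPM in Poria 500, against 1687, 1643 and 1688 CPM in Poria 20 (0.33 ± 0.05, adjusted p = 8.32e-06). ACSL3 had 263.6, 286.2 and 285.7 CPM in Poria 500, against 223.9, 222.3 and 233.8 CPM in Poria 20 (0.30 ± 0.05, adjusted p = 4.03e-05). SREBF1 had 156.4, 162.7 and 157.8 CPM in Poria 500, against 138.2, 130.5 and 138.7 CPM in Poria 20 (0.23 ± 0.05, adjusted p = 0.000905). The 2 doses did not overlap for any of these genes.

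ACACA had 588.1, 596.3 and 633.8 CPM in Poria 500, against 509.6, 547.4 and 536.9 CPM in Poria 20 (0.19 ± 0.04, adjusted p = 0.000743). FASN had 1074, 1113 and 1079 CPM in Poria 500, against 961.4, 946 and 954.6 CPM in Poria 20 (0.19 ± 0.06, adjusted p = 0.0331). ELOVL6 had 74.56, 86.53 and 87.12 CPM in Poria 500, against 67.63, 72.83 and 74.54 CPM in Poria 20 (0.21 ± 0.06, adjusted p = 0.0271). No groups overlapped, though the lowest ELOVL6 library of Poria 500 was level with the highest of Poria 20. The FASN call was lost without Poria 500 library 1 (0.20, adjusted p = 0.0544), 2 (0.17, 0.111) or 3 (0.20, 0.0648), or Poria 20 library 1 (0.20, 0.0643), 2 (0.18, 0.11) or 3 (0.19, 0.0881). The ELOVL6 call was lost without Poria 500 library 2 (0.17, 0.135) or 3 (0.17, 0.158), or Poria 20 library 1 (0.17, 0.142) or 2 (0.22, 0.065). With only the compared groups fitted, ACACA (0.19, adjusted p = 0.1), FASN (0.19, 0.063) and ELOVL6 (0.20, 0.178) were not called. The median over the members was 0.19 and over all genes 0.

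The levels at the middle dose lay between or beside the others. SCD averaged 1673 ± 25.8, 1847 ± 40.3 and 2100 ± 32.5 CPM at 20, 100 and 500 µg/mL of Poria, against 1829 ± 40.8 CPM in vehicle (SD, n = 3 each). Poria 20 was thus the lowest SCD group, with its 3 libraries under every vehicle library, and Poria 100 overlapped with vehicle. ACSL3 averaged 226.7 ± 6.23, 235.6 ± 0.548 and 278.5 ± 12.9 CPM at the same doses, against 232.2 ± 4.25 CPM in vehicle. SREBF1 averaged 135.8 ± 4.61, 137 ± 9.38 and 159 ± 3.32 CPM, against 138.3 ± 3.31 CPM in vehicle. For ACSL3 and SREBF1 the 2 lower doses stayed near vehicle and 500 µg/mL stood apart.

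**Figure D3:**
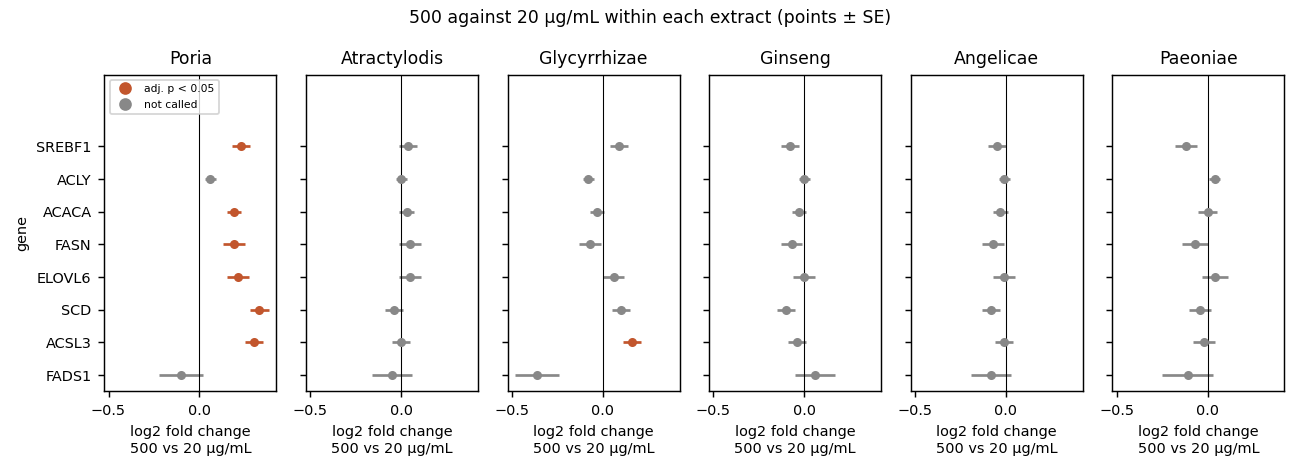
Log2 fold change of 500 against 20 µg/mL (points with SE bars) for 8 members (FADS2 left out) in each extract, orange where the adjusted p was under 0.05. Poria has 6 orange points, the farthest SCD at 0.33, Glycyrrhizae has 1, ACSL3 at 0.16, and the other extracts have none.

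At the other extract doses no member was called. This held in 17 of the 18 extract doses against vehicle, by edgeR and by DESeq2, and between 0 and 3 members a dose had an unadjusted p under 0.05. The log2 fold changes there lay between -0.17 and 0.19, FADS2 left out. FADS2 had 0.198, 0.1884 and 0.1626 CPM in Ginseng 100, against 0.4269, 0.2466 and 0.4421 CPM in vehicle, without overlap (-1.01 ± 0.40, adjusted p = 0.426). That is 5 counts in each Ginseng 100 library, against 10, 6 and 10 counts in vehicle. FADS2 also stood at -0.67 ± 0.38 in Angelicae 20 (adjusted p = 0.402) and -0.66 ± 0.43 in Paeoniae 500 (0.615), both overlapping with vehicle. The shares of all genes called there were small except for Glycyrrhizae 500. They were 0.137% in Atractylodis 20, 0.364% in Atractylodis 100 and 0.25% in Atractylodis 500. They were 0.37% in Glycyrrhizae 20, 0.34% in Glycyrrhizae 100 and 6.91% in Glycyrrhizae 500, and 0%, 0% and 0.352% in Ginseng 20, 100 and 500. They were 0.173%, 0.00596% and 0.161% in Angelicae 20, 100 and 500, and 0%, 0.0477% and 0.161% in Paeoniae 20, 100 and 500. Glycyrrhizae 500 thus had a share of all genes called close to that of Poria 500. No call among its 9 tested members lies near that share, and the member median was 0.05. ACSL3 came nearest there, with 263.3, 243.5 and 252.4 CPM in Glycyrrhizae 500, against 233.9, 235.3 and 227.4 CPM in vehicle, and did not pass (0.12 ± 0.05, adjusted p = 0.11). Signs against vehicle were uneven over all 20 inhibitor and extract groups. ACACA was higher in 18 and lower in 2, ELOVL6 in 17 and 3, and ACLY in 17 and 2. FADS2 was higher in 1 and lower in 19, SCD in 3 and 17, and ACSL3 in 3 and 16. SREBF1 was higher in 4 and lower in 14, FASN in 5 and 14, and FADS1 in 8 and 9. All use the same 3 vehicle libraries, so these signs are not independent.

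Of the other extracts, only Glycyrrhizae gave a member call at 500 against 20 µg/mL, where 3.85% of all genes were called and 1.83% were called higher. ACSL3 had 263.3, 243.5 and 252.4 CPM in Glycyrrhizae 500, against 236.7, 223.1 and 218 CPM in Glycyrrhizae 20, without overlap (0.16 ± 0.05, adjusted p = 0.0393). The call was lost without Glycyrrhizae 500 library 1 (0.14, adjusted p = 0.204) or 3 (0.17, 0.108), or Glycyrrhizae 20 library 2 (0.16, 0.102) or 3 (0.14, 0.221), with no filter (0.16, 0.056) and with only the compared groups fitted (0.16, 0.0852). FADS1 was at its lowest group mean in Glycyrrhizae 500, at 4.603 ± 0.326 CPM, against its highest, 5.918 ± 0.23 CPM, in Glycyrrhizae 20, a difference that was not called (-0.36 ± 0.12, adjusted p = 0.0631). Members called at 500 against 20 µg/mL numbered 0 by edgeR and by DESeq2 in Atractylodis, Ginseng, Angelicae and Paeoniae, where 0%, 0%, 0.0179% and 0.0358% of all genes were called and 0, 0, 0 and 1 members had an unadjusted p under 0.05.

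Extracts of the same code set were compared at 500 µg/mL. SCD had 1812, 1735 and 1755 CPM in Atractylodis 500, against 2070, 2135 and 2096 CPM in Poria 500 (-0.25 ± 0.05, adjusted p = 0.00111). ACSL3 had 230.5, 220.3 and 226.6 CPM in Atractylodis 500, against 263.6, 286.2 and 285.7 CPM in Poria 500 (-0.30 ± 0.05, adjusted p = 3.67e-05). SREBF1 had 133.8, 148.5 and 129 CPM in Atractylodis 500, against 156.4, 162.7 and 157.8 CPM in Poria 500 (-0.21 ± 0.05, adjusted p = 0.00349). These groups did not overlap, and 3 of 9 members were called, all lower in Atractylodis 500, against 1.85% of all genes called and 1.1% called lower. The SREBF1 call was lost without Atractylodis 500 library 3 (-0.17, adjusted p = 0.0802) and with only the compared groups fitted (-0.21, 0.188). Libraries with the same replicate number deviated together in this pair of groups, and with the replicate number as a block 5 members were called, ACACA (-0.12, adjusted p = 0.0493) and FASN (-0.19, 0.0168) in addition.

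The dose effects themselves were also compared. The log2 change of SCD at 500 against 20 µg/mL was smaller by 0.37 in Atractylodis than in Poria (-0.37 ± 0.07, adjusted p = 0.00198), and that of ACSL3 by 0.30 (-0.30 ± 0.07, adjusted p = 0.0212). These were 2 of 9 members, against 0.394% of all genes called and 0.274% called lower. SCD at 20 µg/mL had 1933, 1740 and 1793 CPM in Atractylodis, against 1687, 1643 and 1688 CPM in Poria, so the SCD difference has a share from the low dose as well as from the high one. The difference of SREBF1, -0.19 ± 0.06, was not called (adjusted p = 0.277). The ACSL3 call was lost without any 1 of 8 libraries, Poria 20 library 1 (-0.29, adjusted p = 0.0536) or 2 (-0.29, 0.0966), Poria 500 library 2 (-0.28, 0.0792) or 3 (-0.28, 0.061), Atractylodis 20 library 1 (-0.27, 0.093) or 3 (-0.29, 0.056), or Atractylodis 500 library 2 (-0.29, 0.0713) or 3 (-0.30, 0.0512), and with only the compared groups fitted (-0.30, 0.124).

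SCD, SREBF1 and ACSL3 were also called between Glycyrrhizae 500 and Ginseng 500, extracts of the same code set. None of them was called in either group against vehicle. SCD had 1959, 1871 and 1933 CPM in Glycyrrhizae 500, against 1745, 1578 and 1727 CPM in Ginseng 500 (0.19 ± 0.05, adjusted p = 0.0172). SREBF1 had 142.4, 150.7 and 143.2 CPM in Glycyrrhizae 500, against 133.9, 128 and 126 CPM in Ginseng 500 (0.17 ± 0.05, adjusted p = 0.0281). ACSL3 had 263.3, 243.5 and 252.4 CPM in Glycyrrhizae 500, against 235.7, 216.8 and 215.4 CPM in Ginseng 500 (0.18 ± 0.05, adjusted p = 0.0211). The groups did not overlap, and 3 of 9 members were called, all higher in Glycyrrhizae 500, against 2.48% of all genes called and 1.13% called higher. SCD averaged 1684 CPM in Ginseng 500, 1829 CPM in vehicle and 1921 CPM in Glycyrrhizae 500. In the same order SREBF1 averaged 129.3, 138.3 and 145.4 CPM, and ACSL3 222.7, 232.2 and 253.1 CPM. Set against vehicle, which is of another code set, the differences thus have a share from Ginseng 500 as well as from Glycyrrhizae 500. All 3 calls were lost without Ginseng 500 library 2 (SCD 0.15, adjusted p = 0.168, SREBF1 0.16, 0.0996, ACSL3 0.17, 0.112) or without Glycyrrhizae 500 library 3 (SCD 0.19, 0.0753, SREBF1 0.18, 0.0615, ACSL3 0.19, 0.0709). SCD (0.18, 0.0874) and ACSL3 (0.16, 0.144) were lost without Glycyrrhizae 500 library 1, SREBF1 (0.15, 0.134) without Glycyrrhizae 500 library 2, and SREBF1 (0.15, 0.149) and ACSL3 (0.16, 0.134) without Ginseng 500 library 3. With only the compared groups fitted, SCD (0.19, 0.0987), SREBF1 (0.17, 0.103) and ACSL3 (0.18, 0.109) were not called, nor was SREBF1 with no filter (0.17, 0.0774).

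Differences of the dose effect between Glycyrrhizae and Ginseng gave no member call by edgeR or DESeq2, with 4 members at an unadjusted p under 0.05 and 0.0477% of all genes called. Those between Angelicae and Paeoniae gave none, with 0 members at an unadjusted p under 0.05 and 0% of all genes called. Angelicae 500 against Paeoniae 500 also gave none by either tool, with 0 at an unadjusted p under 0.05 and 0.0179% of all genes called.

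The genes around the members were described with 7 lists, chosen with earlier results of these data known. In LY294002 against vehicle, all 19 tested genes of fatty acid oxidation had a positive log2 fold change, 13 rose and none fell (median 0.30, against 0.01 over all genes), while 18.7% of all genes were called higher. ACADS, an acyl-CoA dehydrogenase of short chains, rose by 1.17 ± 0.15 on the log2 scale, HADHB by 0.41 ± 0.06, ACADM by 0.39 ± 0.05, and CPT1A, the gate of long-chain entry into mitochondria, by 0.23 ± 0.05. Of 16 tested genes of glycerolipid synthesis and lipid droplets 8 rose and none fell, among them the lipases PNPLA2 (0.50 ± 0.07) and MGLL (0.32 ± 0.03), FITM2 (0.54 ± 0.07) and DGAT1 (0.33 ± 0.05). PLIN2, which coats droplets, rose by 0.27 ± 0.11 (adjusted p = 0.048), a call lost without LY294002 library 1 (0.14, 0.363) or vehicle library 2 (0.23, 0.15) or 3 (0.26, 0.099), and by DESeq2 (0.26, 0.078). The PLIN2 call was also lost with RLE size factors (0.26, 0.0549), with no filter (0.26, 0.135) and with only the compared groups fitted (0.27, 0.13).

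Cholesterol synthesis, the pathway of the related regulator SREBF2, also had more lower than higher calls in LY294002, where 11 of 23 genes fell and 2 rose (median -0.14), against 20.5% of all genes called lower and 18.7% called higher. ACAT2 changed by -0.40 ± 0.07 and HMGCS1 by -0.32 ± 0.10, while TM7SF2, a sterol reductase, rose by 0.86 ± 0.06. The HMGCS1 call was lost without LY294002 library 3 (-0.24, adjusted p = 0.0744). SREBF2 (0.04 ± 0.03), INSIG1 (-0.03 ± 0.07) and SCAP (0.07 ± 0.04) were not called. The list of SREBP processing and control has 16 genes, and it also takes in other transcription factors such as MLX and USF1. Of these 16 genes 2 rose, among them the protease MBTPS1 (0.24 ± 0.04). The 2 that fell were MLX (-0.37 ± 0.04) and USF1 (-0.15 ± 0.06), which do not process SREBP. The counts in each direction lie below those shares of all genes. The USF1 call was lost without LY294002 library 1 (-0.13, adjusted p = 0.125) or 2 (-0.13, 0.139) or vehicle library 1 (-0.13, 0.126) or 2 (-0.15, 0.0826), and with no filter (-0.16, 0.0943).

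Among 21 tested genes of other steps of fatty acid synthesis, elongation and activation, 4 rose and 6 fell in LY294002, near the shares of all genes there, 18.7% higher and 20.5% lower. The dehydratases of elongation HACD2 (-0.32 ± 0.04) and HACD3 (-0.28 ± 0.03) fell, ACSL5, an acyl-CoA synthetase of intestine, rose by 0.32 ± 0.03 and FADS3 by 0.62 ± 0.12, and ACSS2, which makes acetyl-CoA from acetate, changed by -0.27 ± 0.07. Of 9 genes listed under NADPH supply 3 rose and 4 fell, with MTHFD1 at -0.46 ± 0.04, PGLS at 0.46 ± 0.06 and NNT at -0.23 ± 0.05. Not all of this list, called the NADPH genes here, make NADPH themselves, PGLS and TKT being examples. ME1, the malic enzyme, changed by -0.04 ± 0.04 (adjusted p = 0.372). The liver X receptor targets ABCG1 (0.98 ± 0.15) and MYLIP (0.46 ± 0.06) rose, 2 of 5 tested.

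In Poria 500 against vehicle the NADPH genes stood beside the members, with 6 of 9 higher and none lower, against 4.6% of all genes called higher and 2.89% called lower. ME1 had 141.4 ± 1.59 CPM in Poria 500 and 92.75 ± 3.61 CPM in vehicle (SD, n = 3 each, log2 fold change 0.61 ± 0.04, adjusted p = 3.1e-17). TKT and PGD, enzymes of the pentose phosphate pathway, rose by 0.43 ± 0.04 and by 0.28 ± 0.04. Of the 5 tested liver X receptor targets 3 rose, ABCG1, a sterol exporter, by 1.01 ± 0.15, MYLIP, a ubiquitin ligase, by 0.51 ± 0.06, and LPCAT3, which puts polyunsaturated chains into phospholipids, by 0.25 ± 0.05. SREBF1 and SCD are themselves known targets of that receptor, and whether it acted here was not tested. In LY294002 against vehicle ABCG1 (0.98) and MYLIP (0.46) also rose, while neither SREBF1 nor SCD was called higher. The NADPH genes and receptor targets named for Poria 500 were also higher there than in Poria 20, ME1 by 0.54 ± 0.04, TKT by 0.37 ± 0.04, PGD by 0.23 ± 0.04, ABCG1 by 0.87 ± 0.14, MYLIP by 0.33 ± 0.06 and LPCAT3 by 0.26 ± 0.05.

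Of the cholesterol genes, none of 23 was higher and 1 was lower in Poria 500 against vehicle, TM7SF2 at -0.28 ± 0.06, while 4.6% of all genes were called higher and 2.89% lower. The TM7SF2 call was lost with only the compared groups fitted (-0.28, adjusted p = 0.0541). HMGCS1 (-0.09 ± 0.10), SREBF2 (-0.06 ± 0.03), INSIG1 (-0.10 ± 0.07) and SCAP (-0.04 ± 0.04) were not called, and none of the 16 genes of SREBP processing and control was called by edgeR or by DESeq2, with 1 at an unadjusted p under 0.05 and 1 called with the replicate block or with no filter. At 500 against 20 µg/mL of Poria, TM7SF2 changed by -0.30 ± 0.06. ACSS2 fell in Poria 500 against vehicle, by 0.36 on the log2 scale (SE 0.07), opposite in sign to ACACA and FASN, and CYB5A, the electron donor of desaturases, rose by 0.24 ± 0.07. The CYB5A call was lost without Poria 500 library 1 (0.19, adjusted p = 0.194) or vehicle library 2 (0.22, 0.125) or 3 (0.21, 0.188). These were the only 2 calls among 21 genes of other steps of fatty acid synthesis, a share near the 7.49% of all genes called.

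Among genes of oxidation and storage, calls in Poria 500 against vehicle were no rarer than the 7.49% over all genes. Of 19 oxidation genes 1 rose and 1 fell. CPT1A rose (0.19 ± 0.05), a call lost without vehicle library 3 (0.14, adjusted p = 0.117). Of 16 glycerolipid genes ABHD5 rose (0.34 ± 0.10) and AGPAT1 fell (-0.18 ± 0.05). The ABHD5 call was lost without Poria 500 library 1 (0.27, adjusted p = 0.181) or 3 (0.35, 0.057) or vehicle library 1 (0.35, 0.0559) or 3 (0.24, 0.252), and with no filter (0.35, 0.0635). The AGPAT1 call was lost without Poria 500 library 3 (-0.15, adjusted p = 0.109) or vehicle library 2 (-0.17, 0.0615) or 3 (-0.16, 0.0953), and with no filter (-0.17, 0.0818). PLIN2 differed by 0.10 ± 0.11 (adjusted p = 0.662). With only the compared groups fitted, CPT1A (adjusted p = 0.145), ABHD5 (0.17), AGPAT1 (0.112) and, from the synthesis list, CYB5A (0.0885) were not called in Poria 500 against vehicle, nor were ACSS2 (0.06) and USF1 (0.132) in LY294002 against vehicle or MYLIP (0.0679) in Poria 500 against 20.

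Glycyrrhizae 500 against vehicle had no member called, but 6 of the 9 NADPH genes rose there too, against 3.65% of all genes called higher and 3.26% called lower. The log2 changes were 0.24 ± 0.04 for ME1 and 0.18 ± 0.04 for TKT. ACSS2 changed by -0.46 ± 0.07 (adjusted p = 2.25e-05), and INSIG1, which holds SREBP in the endoplasmic reticulum and is itself an SREBP target, by -0.37 ± 0.07 (adjusted p = 0.000777). MYLIP rose by 0.34 ± 0.07, MGLL fell by 0.25 on the log2 scale (SE 0.03), and ACADVL rose by 0.28 ± 0.04. By list, 2 of 5 liver X receptor targets rose, 1 of 16 glycerolipid genes fell, and of 19 oxidation genes 2 rose and 1 fell. Of 21 genes of other synthesis steps 1 rose and 1 fell, and of 16 SREBP processing genes 1 fell. Of 23 cholesterol genes 3 fell and none rose, each call being lost under some alternatives. The comparisons with vehicle share its 3 libraries, so values that occur in several of them are not independent.

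**Figure D4:**
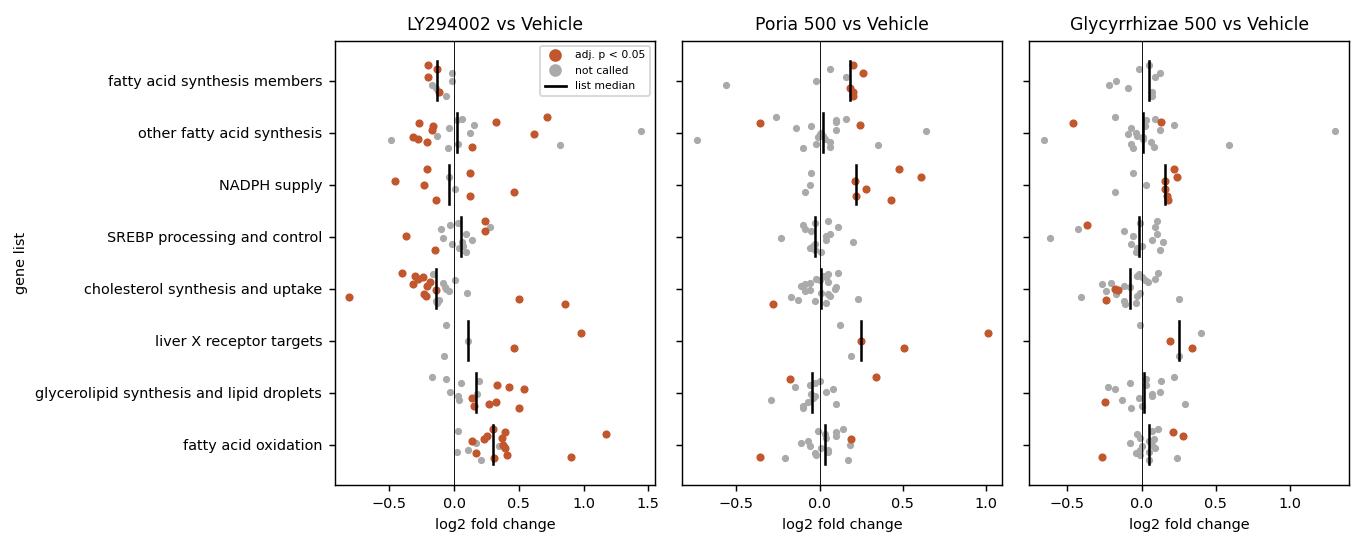
Log2 fold changes of the tested members and of the 7 lists in LY294002, Poria 500 and Glycyrrhizae 500 against vehicle, 1 point a gene, orange at an adjusted p under 0.05, with the list median as a black bar. Oxidation genes lie to the right of 0 in LY294002 (median 0.30), the members to the left there (-0.13) and to the right in Poria 500 (0.18).

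Across the 21 group means of log2 CPM, Pearson's r between pairs of members ran between -0.26 and 0.891, with a median of 0.295 and 27 of 36 pairs positive. The groups share library depth and code sets, so r is a description only. SREBF1 varied most like SCD (0.891) and ACSL3 (0.876), and SCD like ACSL3 (0.857). ACACA varied most like ELOVL6 (0.885) and ACLY (0.827), while ACLY with ACSL3 gave -0.0325. FADS1 and FADS2 had no r above 0.205 with any member. With the 18 extract doses centred on the mean of their extract, which removes differences between code sets, SCD with ACSL3 gave 0.914, SREBF1 with ACSL3 0.889 and SREBF1 with SCD 0.875. These are the 3 members already picked by the test among doses. Over all pairs the centred r ran between -0.639, for FADS1 with ACSL3, and 0.914, with a median of 0.409 and 22 of 36 positive. Outside the lists, the 5 genes whose group means were most like the mean member profile were NUP58 (0.875), YWHAH (0.87), USP7 (0.87), MYBBP1A (0.861) and NPC1 (0.861), over 21 groups.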

How the data were processed

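Messenger RNA of HT29 cells was read as pairs in 60 libraries. Per the submitters' processing notes, the authors used FastQC 0.11.9, Trim Galore 0.6.5, STAR 2.7.3a and RSEM 1.3.3 on GRCh38 (hg38). Their annotation release and how strand was set in counting are not given in these sources. The values the authors deposited are RSEM expected counts, without normalisation, and 24.2% of those above 0 were not whole. Of 273 columns 60 were used and 213 were not used here.

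Expected counts were rounded and filtered with filterByExpr (edgeR 4.0.16, minimum count 10, minimum total 15), and scaled by TMM. One quasi-likelihood model with 21 group means was fitted to all libraries (39 residual degrees of freedom), and the standard error is the one its F statistic implies. Benjamini-Hochberg adjustment ran over 16767 genes in each of 33 comparisons, with a call under 0.05. DESeq2 1.42.0, RLE size factors, no filter, a fit to the compared groups only, a replicate block and leaving out each library were alternatives. The procedure was tested on simulated data.

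The members and lists were chosen with earlier results of these data known. All members were named, and up to 4 genes with the smallest adjusted p per list and described comparison, plus SREBF2, INSIG1, SCAP, HMGCS1, CPT1A, ACSS2, ME1 and PLIN2, except a few genes that are not reported here. Replicate numbers were taken to pair groups where all 3 same-numbered pairs correlated above 0.1 over 10655 genes of at least 5 CPM, the pairing coming from the data and not from the labels. This held in 3 of 30 comparisons, wortmannin with vehicle, Ginseng 500 with 20 and Atractylodis 500 with Poria 500. No 2 replicates agreed within sampling noise.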

Additional observations from a re-analysis of the deposited data

Results flagged for a closer look

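The effect of 500 against 20 µg/mL differed between Atractylodis and Poria, 2 extracts of the same code set, for 2 members. For SCD the difference of the log2 changes was -0.37 ± 0.07 (SE, adjusted p = 0.00198, edgeR interaction term), and for ACSL3 -0.30 ± 0.07 (adjusted p = 0.0212). Both changes were higher in Poria. The SCD difference kept its call under every alternative run, between -0.40 and -0.33.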

How the results depend on the processing

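Of 27 calls of a member in a comparison, 10 were kept under every alternative (RLE size factors, no filter, DESeq2, the compared groups only, the replicate block and each library left out), 17 were lost under at least 1, and 0 reversed. A fit to the compared groups only, which has fewer libraries to estimate the spread, called 2 members in LY294002 against vehicle, 2 in Poria 500 against vehicle, 0 in wortmannin against LY294002, 3 in Poria 500 against 20, 0 in Glycyrrhizae 500 against 20, 0 in Glycyrrhizae 500 against Ginseng 500 and 1 in the dose effect of Atractylodis less that of Poria. With no filter, 0 were called in Glycyrrhizae 500 against 20. DESeq2 called 5 in Atractylodis 500 against Poria 500, as did the replicate block. The block called 2 in Glycyrrhizae 500 against 20, ACSL3 and FADS1 (-0.36, adjusted p = 0.0434), a pair of groups whose numbers did not pair by the rule, and FASN in LY294002 (-0.14, 0.0167) and ELOVL6 in Poria 500 (0.16, 0.00747) against vehicle. It lost no call of a member, and over all groups residuals of the same number had a mean r of 0.128. Leaving out 1 library gave 3 to 5 members in LY294002 and 4 to 5 in Poria 500 against vehicle, 2 to 3 in wortmannin against LY294002, 4 to 5 in Poria 500 against 20, 0 to 1 in Glycyrrhizae 500 against 20, 2 to 3 in Atractylodis 500 against Poria 500, 0 to 3 in Glycyrrhizae 500 against Ginseng 500, 1 to 2 in the difference of dose effects between Atractylodis and Poria, and 0 in the comparisons with no member called. The same alternatives for the lists were chosen after seeing the data. Depth limits FADS2, at 3 to 14 counts a library. ELOVL5 did not pass the filter.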
